A study of Mus musculus with 6 samples.

Results

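The IGF receptor and binding protein genes of mouse podocyte cells were taken by symbol. Of 8 genes named for the family (Igf1r, Igf2r, Igfbp2, Igfbp3, Igfbp4, Igfbp5, Igfbp6 and Igfbp7), 6 were among the 12803 genes of the deposited table. Igfbp5 and Igfbp6 were not among its rows and were not analysed here. The KO group held 3 RNA-seq libraries of a podocyte-derived cell line with the genotype Myosin 1e KO, and the WT group held 3 libraries of the murine podocyte line that the labels call Mundel, with the genotype WT. Both lines are cultured kidney cells, and no treatment, time or age is given. Each genotype was represented by 1 line, so genotype and other differences between the lines cannot be told apart. The labels do not say whether replicates came from separate cultures; if not, the p-values describe only technical scatter from library to library. Myo1e, the targeted gene, had 17.3 ± 1.4 CPM (the read count scaled to the library size, from the listed genes) in KO cells and 177 ± 8.4 CPM in WT cells, in the direction of the labels in all 6 libraries.

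Insulin-like growth factors (IGFs) are secreted peptides that act through the receptor tyrosine kinase encoded by Igf1r, which signals to PI3K, AKT and mTOR and to the Ras pathway. Igf2r encodes a receptor without kinase activity that takes up and degrades IGF2 and carries enzymes tagged with mannose 6-phosphate to lysosomes. The IGF-binding proteins (IGFBPs) hold IGFs outside the cell, prolong their life and limit or aid their access to the receptor, and proteases release the IGFs again. IGFBP7 belongs to the same superfamily but binds IGFs weakly. In the kidney, IGF signalling is known for its part in glomerular and tubular growth and in podocyte survival.

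Among the members tested, 1 binding protein gene was far lower in the KO line than in WT cells and another far higher. Both receptor genes and Igfbp7 had libraries that overlapped between the lines. Igfbp2 averaged 9.34 ± 3.1 CPM in KO cells and 899 ± 215 CPM in WT cells. Igfbp3 averaged 17.5 ± 3.7 CPM in KO cells and 0.703 ± 0.17 CPM in WT cells (SD, n = 3 each). Igfbp4, too low for the main test, was also lower in the KO line, at 0.164 ± 0.13 CPM against 1.64 ± 0.59 CPM in WT cells. Of the 5 members that could be tested, 1 rose and 1 fell in the limma fit over all genes (Benjamini-Hochberg adjusted p below 0.05). Over the 12616 genes tested, 68.1% passed, 34.3% higher and 33.8% lower in KO cells, so a change in itself did not set these genes apart. In such bulk samples, fewer cells of a type and less RNA per cell cannot be told apart. The median size of the log2 fold change was 0.51 over all genes tested.

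**Figure D1:**
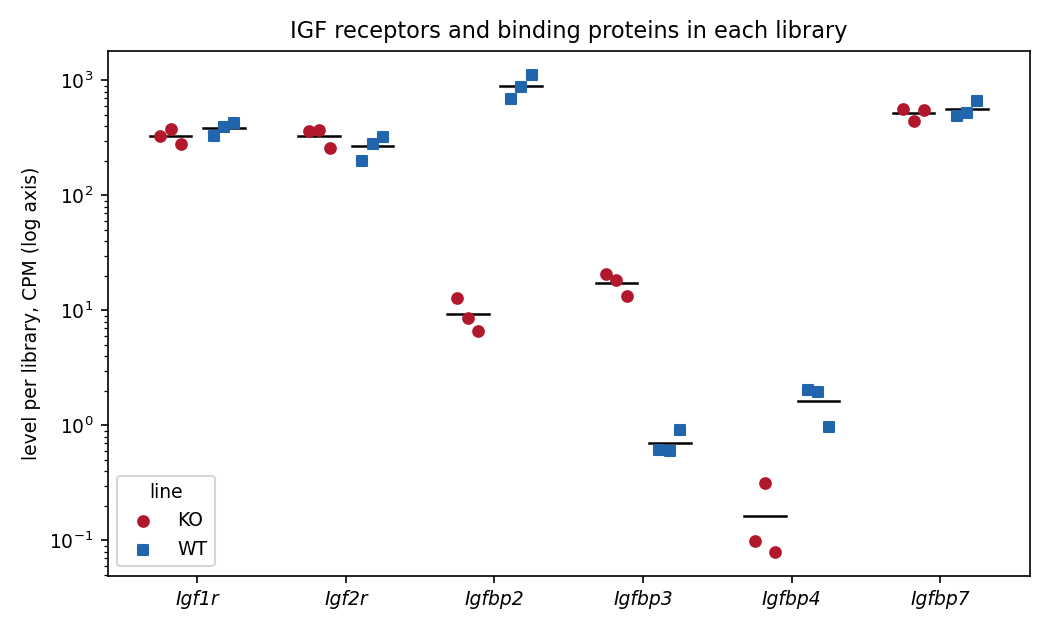
Level of each listed member in each library, in CPM on a log axis, with KO libraries as red circles left of WT libraries as blue squares and the group mean as a bar. Igfbp2, Igfbp3 and Igfbp4 separate the lines without overlap, with KO levels of Igfbp2 between 6.69 and 12.7 CPM, and Igf1r, Igf2r and Igfbp7 overlap.

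The sequences upstream of 4 binding protein genes are shown because these genes contrasted between the lines. Igfbp2 and Igfbp4 were lower in KO than in WT cells, Igfbp3 was higher, and Igfbp7 was abundant in both. Each sequence is the 250 bases before the RefSeq start on the gene's strand (GRCm38.p6), read 5′ to 3′. They lie at chr1:72824230-72824479 on the plus strand for Igfbp2, chr11:7213924-7214173 on the minus strand for Igfbp3, chr11:99040994-99041243 on the plus strand for Igfbp4 and chr5:77408046-77408295 on the minus strand for Igfbp7. RefSeq gives 2 such windows for Igfbp2, and the one further upstream is shown. Capitals mark motifs found on either strand. These were the GC box (GGGCGG), the TATA motif in its common spelling (TATAAA) or another spelling (TATATA), and an E-box (CACCTG).
Igfbp2: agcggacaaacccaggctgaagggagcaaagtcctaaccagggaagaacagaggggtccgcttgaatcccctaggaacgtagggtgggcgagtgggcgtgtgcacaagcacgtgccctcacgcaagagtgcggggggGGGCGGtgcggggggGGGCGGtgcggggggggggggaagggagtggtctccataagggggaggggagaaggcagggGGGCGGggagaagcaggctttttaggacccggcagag
Igfbp3: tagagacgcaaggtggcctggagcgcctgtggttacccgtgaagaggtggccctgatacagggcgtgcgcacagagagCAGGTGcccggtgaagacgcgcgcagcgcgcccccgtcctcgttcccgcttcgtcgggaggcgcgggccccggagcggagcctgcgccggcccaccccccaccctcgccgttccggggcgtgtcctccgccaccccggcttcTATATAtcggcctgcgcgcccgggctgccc
Igfbp4: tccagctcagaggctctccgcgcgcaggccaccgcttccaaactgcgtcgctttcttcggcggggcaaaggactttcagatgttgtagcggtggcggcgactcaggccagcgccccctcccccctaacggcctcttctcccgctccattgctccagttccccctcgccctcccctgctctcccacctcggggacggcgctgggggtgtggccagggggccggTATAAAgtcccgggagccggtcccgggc
Igfbp7: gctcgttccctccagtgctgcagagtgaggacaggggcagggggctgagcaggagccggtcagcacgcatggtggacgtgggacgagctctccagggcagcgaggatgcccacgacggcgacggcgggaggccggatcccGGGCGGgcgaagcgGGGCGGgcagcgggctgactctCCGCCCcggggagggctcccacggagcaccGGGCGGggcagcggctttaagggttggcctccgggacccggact
The Igfbp2 window held 3 GC boxes and the Igfbp7 window 4, and neither held a TATA motif or this E-box. The Igfbp3 window held 1 TATA motif and 1 E-box, written CAGGTG on this strand, and the Igfbp4 window 1 TATA motif. No motif overlapped another of its kind or of the other kinds in these windows. Over 32851 RefSeq promoter windows of the same length, 32.7% held a GC box, 15.6% a TATA motif and 17.2% the E-box. The GC content was 67.2% for Igfbp2, 73.2% for Igfbp3, 69.2% for Igfbp4 and 74% for Igfbp7, against a median of 52.4% over all windows. The expression table holds no measurement of binding at these sequences.

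Neither receptor gene passed the test. Igf1r (ENSMUSG00000005533, chr7:67952827-68233668, plus strand, GRCm38) had 328, 382 and 281 CPM in KO libraries, against 330, 392 and 424 CPM in WT libraries. The groups overlapped, with KO replicate 3 lowest and WT replicate 3 highest. The log2 fold change was -0.21 (SE 0.14, 95% interval -0.52 to 0.10, limma adjusted p = 0.19), so the interval runs from 0.695 to 1.07 times the WT level.

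Igf2r (ENSMUSG00000023830, chr17:12682406-12769664, minus strand) had 360, 369 and 258 CPM in KO libraries, against 201, 279 and 323 CPM in WT libraries. WT replicate 1 was the lowest of the 6 and KO replicate 3 lay among the WT values. Its log2 fold change was 0.31 (SE 0.19, 95% interval -0.14 to 0.75, limma adjusted p = 0.19), or 0.91 to 1.69 times the WT level. Igf2r overlaps over 28354 bases with Airn, the antisense RNA that silences the paternal Igf2r allele in most mouse tissues. Airn had 3.00 ± 0.55 CPM in KO cells and 3.18 ± 1.1 CPM in WT cells and did not pass (limma adjusted p = 0.91). The strand setting of the counting is not given in the sources used here, so reads of the pair could not be assigned with certainty, although the Airn level was small beside that of Igf2r.

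The groups did not overlap in the ratio of the receptor genes. There were 1.10, 0.968 and 0.919 Igf2r reads for each Igf1r read in KO libraries, against 0.609, 0.711 and 0.761 in WT libraries. All 3 KO ratios were above all 3 WT ratios. Among single genes tested, 73.5% had groups that did not overlap, and the share for ratios between genes was not computed. Within a group, KO replicate 3 was lowest for both genes and WT replicate 1 was lowest for both. The mean ratio was 0.995 ± 0.092 in KO cells and 0.694 ± 0.077 in WT cells (exact two-sided permutation test p = 0.1, the smallest that 3 libraries against 3 allow). Per kilobase of annotated exon, the ratio of Igf2r to Igf1r was 1.80 ± 0.17 in KO cells and 1.25 ± 0.14 in WT cells. Insr, the related insulin receptor gene, had 84.4 ± 10 CPM in KO cells and 73.6 ± 4.7 CPM in WT cells and did not pass (log2 fold change 0.19, limma adjusted p = 0.12), but passed without KO replicate 3 (log2 fold change 0.27, limma adjusted p = 0.0362, with 0.0362 to 0.366 over the alternatives).

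Igfbp2 encodes a secreted IGF-binding protein that also carries an integrin-binding motif. It lies at chr1:72824503-72852474 on the plus strand (ENSMUSG00000039323). It had 12.7, 8.62 and 6.69 CPM in KO libraries, against 696, 875 and 1124 CPM in WT libraries. The lowest WT library was far above the highest KO library. The log2 fold change was -6.61 (SE 0.24, 95% interval -7.16 to -6.05, limma adjusted p = 1.0e-07), which is 97.5-fold lower in KO cells (95% interval 66.3 to 143). The KO libraries held 1071 reads of it together and the WT libraries 103324. A log2 fold change at least this large in either direction was found in 328 of the genes tested, or 2.6%.

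Igfbp3 encodes the main IGF carrier of blood plasma, where it forms a complex with the acid-labile subunit. It lies at chr11:7206086-7213923 on the minus strand (ENSMUSG00000020427). It had 20.7, 18.3 and 13.4 CPM in KO libraries, against 0.609, 0.595 and 0.905 CPM in WT libraries. Every KO library was above every WT library. The log2 fold change was 4.59 (SE 0.24, 95% interval 4.05 to 5.13, limma adjusted p = 6.7e-07), or 24.1-fold higher in KO cells (95% interval 16.5 to 35.0). Of the genes tested, 5.98% had a log2 fold change at least this large in either direction. The WT libraries held 23 to 32 reads each, and the gene entered the test through its KO level alone. With 1 CPM added before the log, the log2 fold change was 3.42 (limma adjusted p = 2.9e-07, with 2.9e-07 to 2.4e-05 over all alternatives).

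Igfbp4 encodes a binding protein known mainly as an inhibitor of IGF action, which the protease PAPP-A cleaves. It lies at chr11:99041244-99054392 on the plus strand (ENSMUSG00000017493). It was low everywhere, with 0.0984, 0.314 and 0.0796 CPM in KO libraries, against 2.01, 1.94 and 0.961 CPM in WT libraries. These are 4, 11 and 3 reads in KO libraries and 86, 75 and 34 reads in WT libraries, which do not overlap. The gene did not reach the level needed for the main test. Pooled over libraries, the KO level was 9.50% of the WT level (exact Clopper-Pearson 95% interval 5.52% to 15.4%, counting error only). The mean log2 CPM differed by -3.26 (exact two-sided permutation test p = 0.1, the smallest possible). With all listed genes in the fit, limma gave an adjusted p of 0.00051.

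Igfbp7 encodes a secreted protein of the vessel wall and the matrix. It lies at chr5:77349240-77408041 on the minus strand (ENSMUSG00000036256) and shares 85 bases with Polr2b and 7085 with Gm34648, an antisense gene not among the rows used here, both on the opposite strand. With the strand setting not given, reads from these overlaps could not be assigned with certainty. It had 569, 445 and 554 CPM in KO libraries, against 495, 523 and 662 CPM in WT libraries. The groups overlapped, with the lowest value in KO replicate 2 and the highest in WT replicate 3. The log2 fold change was -0.10 (SE 0.14, 95% interval -0.42 to 0.23, limma adjusted p = 0.57), or 0.748 to 1.17 times the WT level.

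Of the 6 listed members, Igfbp2, Igfbp3 and Igfbp4 had groups that did not overlap. The same held for 73.5% of the genes tested.

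**Figure D2:**
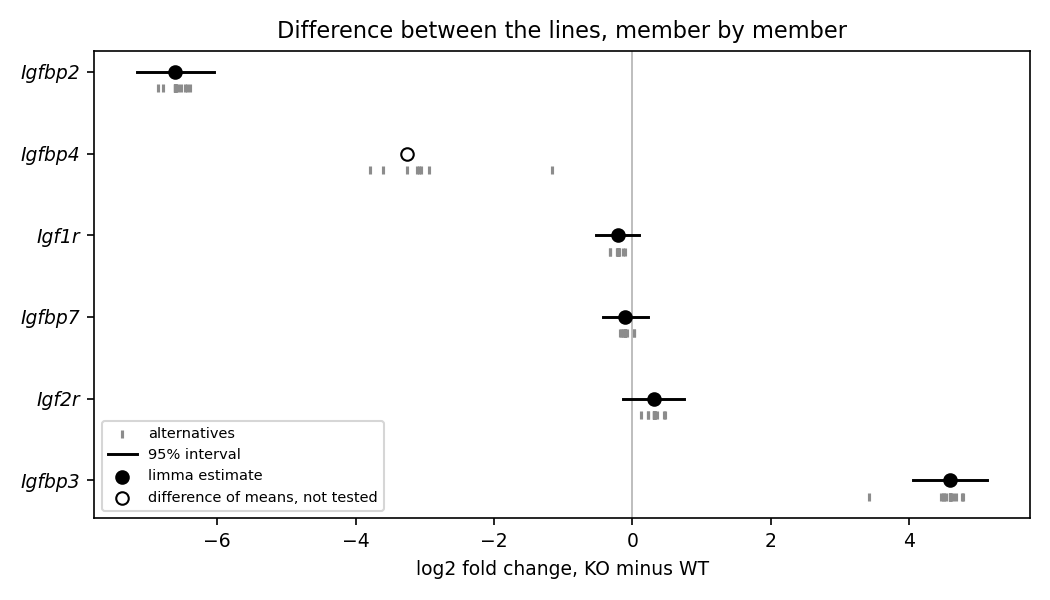
Log2 fold change of each listed member, KO minus WT, with its 95% interval from limma as a line, the value under each alternative as a grey tick, and Igfbp4 as an open circle because it was not in the main test. Igfbp2 at -6.61 and Igfbp3 at 4.59 lie far from 0, and the intervals of Igf1r, Igfbp7 and Igf2r include 0.

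The make-up of the binding protein reads was unlike in the lines, as a description with no test of the shares. Igfbp7 gave 94.4%, 94.2% and 96.5% of the reads of the 4 listed IGFBP genes in KO libraries, against 41.5%, 37.3% and 37% in WT libraries. Igfbp2 gave 2.11%, 1.83% and 1.16% in KO libraries, against 58.3%, 62.5% and 62.9% in WT libraries. Igfbp7 gave nearly all of these reads in KO libraries, and Igfbp2 and Igfbp7 gave nearly all of them together in WT libraries. Igfbp3 made up 3.22 ± 0.79% of these reads in KO cells and 0.048 ± 0.0048% in WT cells. The summed level was 603, 472 and 574 CPM in KO libraries, against 1194, 1400 and 1788 CPM in WT libraries.

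Levels per kilobase were divided by the length of all annotated exons of a gene, whether or not these cells use them. The order of genes on this scale therefore depends on the annotation. Igfbp7 was the highest member in KO cells at 432 ± 56 CPM per kilobase. Igf2r followed at 35.4 ± 6.6, Igf1r at 19.7 ± 3.0, Igfbp3 at 5.58 ± 1.2, Igfbp2 at 5.06 ± 1.7 and Igfbp4 at 0.0371 ± 0.029 CPM per kilobase in KO cells. Igfbp3 and Igfbp2 could not be ordered there, since their libraries overlapped. In the WT line Igfbp2 at 486 ± 116 and Igfbp7 at 463 ± 74 CPM per kilobase overlapped and stood highest. They were followed there by Igf2r at 28.7 ± 6.6 and Igf1r at 22.8 ± 2.8 CPM per kilobase. These overlapped between libraries, but within each WT library Igf2r was above Igf1r, at 1.10, 1.28 and 1.37 times its level. By reads, without the length, Igf2r was below Igf1r in each WT library. Lowest there were Igfbp4 at 0.371 ± 0.13 and Igfbp3 at 0.225 ± 0.056 CPM per kilobase. Between these last genes WT replicate 3 had more Igfbp3 than Igfbp4 per kilobase, unlike the other WT libraries.

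**Figure D3:**
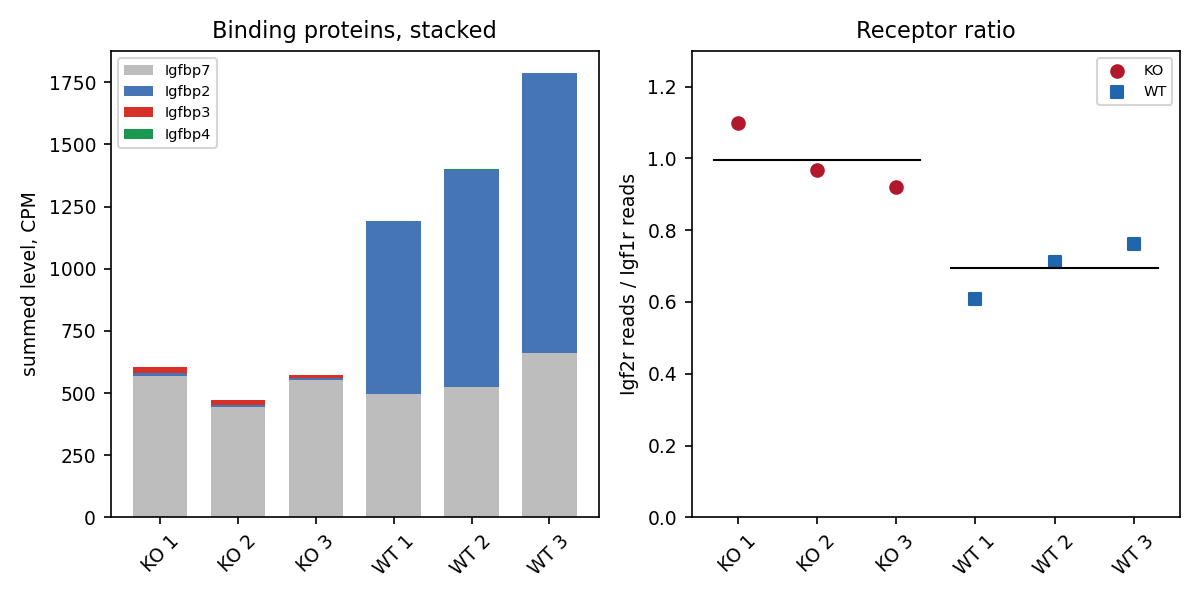
Left, the summed level of the 4 listed IGFBP genes in each library in CPM, stacked by gene, KO libraries left of WT libraries; right, Igf2r reads divided by Igf1r reads in each library, with group means as lines. The KO bars reach 472 to 603 CPM and are almost all Igfbp7, the WT bars reach 1194 to 1788 CPM, and the receptor ratio is higher in every KO library.

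The genes with the most similar levels over the 6 libraries were found by the root mean square difference of log2 CPM. For Igfbp3 these were Slc29a4, a monoamine transporter, at a difference of 0.27, the Arf exchange factor Psd4 at 0.27 and the chromatin remodeller Chd7 at 0.29. Slc29a4 had 18.9 ± 5.5 CPM in KO cells and 0.606 ± 0.12 CPM in WT cells. For Igfbp2 they were the actin-binding gene Tagln at 0.57, Plac8 at 0.73 and the interferon-induced gene Ifit1 at 0.75. Plac8 had 14.4 ± 4.9 CPM in KO cells and 889 ± 131 CPM in WT cells.

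By position, Igfbp2 and Igfbp5 face each other end to end 5.46 kb apart, and Igfbp3 lies 3.54 kb from Igfbp1. Neither partner was among the rows used here. The nearest listed genes were looked up after the members' values were known. Adcy1, an adenylyl cyclase gene 27.6 kb from Igfbp3, also rose, with 39.7 ± 5.4 CPM in KO cells and 3.01 ± 1.1 CPM in WT cells (log2 fold change 3.78, SE 0.28, limma adjusted p = 5.6e-06). Tns3, the nearest listed gene on the other side of Igfbp3 but 1217.7 kb away, fell (log2 fold change -0.66, limma adjusted p = 0.00011). Top2a, a DNA topoisomerase of dividing cells 17.1 kb from Igfbp4, fell with 21.8 ± 5.3 CPM in KO cells and 144 ± 52 CPM in WT cells (log2 fold change -2.68, SE 0.29, limma adjusted p = 6.1e-05). Smarce1, 154.7 kb away on the other side of Igfbp4, rose by 0.39 on the log2 scale (limma adjusted p = 0.00086). Rpl37a, a ribosomal protein gene 110.7 kb from Igfbp2, had 107 ± 9.2 CPM in KO cells and 96.4 ± 1.2 CPM in WT cells and did not pass (limma adjusted p = 0.14). Tns1, 1057.8 kb away on the other side of Igfbp2, rose by 1.10 on the log2 scale (limma adjusted p = 0.0037). Over all genes tested, 68.1% passed.

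The wider IGF pathway had members on both sides. The lists held 85 genes, of which 70 were tested, and 17 rose and 29 fell. That is 65.7% passed, close to the 68.1% of all genes, with a median log2 fold change of -0.05 against 0.014 over all genes. Among ligands, Igf1, which encodes the growth factor itself, fell. It had 1.70, 2.80 and 0.292 CPM in KO libraries, against 25.1, 20.7 and 19.8 CPM in WT libraries, and KO replicate 3 stood lowest. The log2 fold change was -4.24 (SE 0.68, limma adjusted p = 0.00063). It was -3.30 without KO replicate 3, -4.88 without KO replicate 2 and -3.27 with 1 CPM added before the log. Igf2, Ins1 and Ins2 were not among the rows used here, and neither were Igfbp1, Igfbpl1, Igfals and Esm1.

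**Figure D4:**
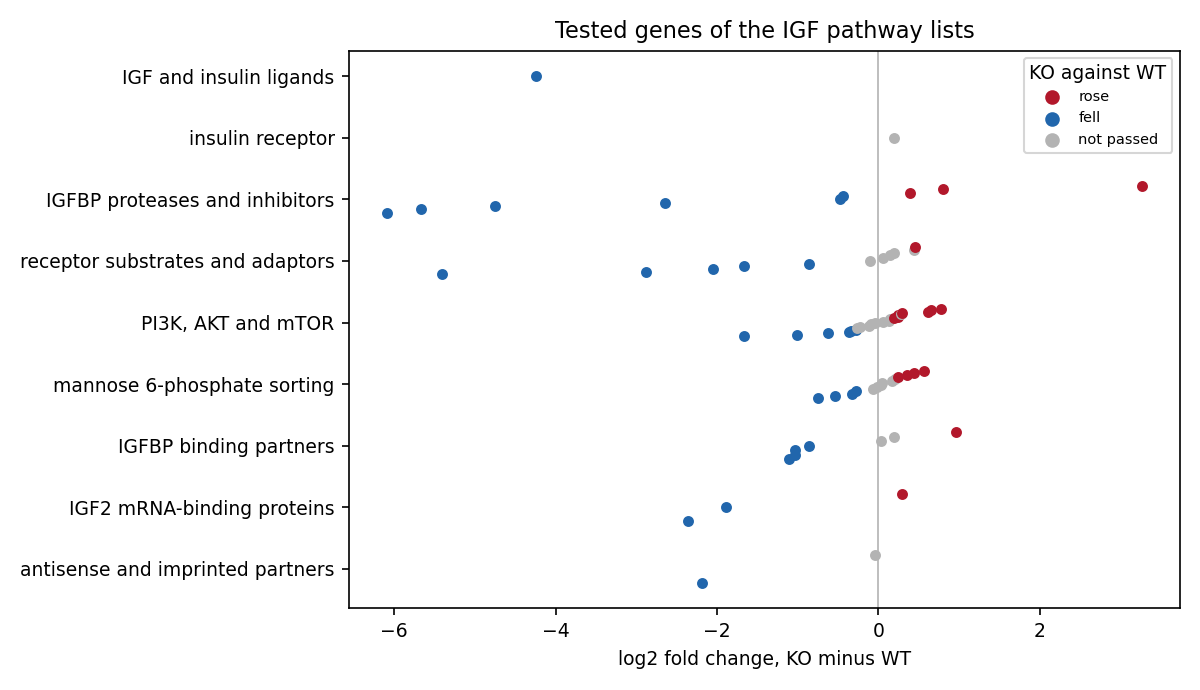
Log2 fold change, KO minus WT, of each tested gene of the IGF pathway lists, red where it rose, blue where it fell and grey where it did not pass. Stc2 at -6.09, Pappa at -5.67, Grb10 at -5.41, Stc1 at -4.75 and Igf1 at -4.24 lie furthest to the left, and Adam12 at 3.27 furthest to the right.

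Among proteases that cleave IGFBPs and their inhibitors, 3 rose and 6 fell of 9 tested (100%, against 68.1% of all genes tested). Pappa, the gene of PAPP-A, had 0, 0.0856 and 0.0531 CPM in KO libraries, against 4.50, 2.98 and 2.23 CPM in WT libraries. Its log2 fold change was -5.67 (limma adjusted p = 3.2e-05), -5.06 without KO replicate 1 and -1.98 with 1 CPM added before the log. The KO libraries held 5 reads of it together and the WT libraries 386, and the gene entered the test through its WT level alone. Stc2, the gene of stanniocalcin-2, a secreted inhibitor of PAPP-A, had 2.63, 7.68 and 7.14 CPM in KO libraries, against 296, 356 and 441 CPM in WT libraries (log2 fold change -6.09, SE 0.37, limma adjusted p = 1.8e-06). Stc1, the gene of its relative stanniocalcin-1, fell to 0.315 ± 0.13 CPM in KO cells, against 9.15 ± 3.6 CPM in WT cells, and also entered the test through its WT level alone (log2 fold change -4.75, and -2.88 with 1 CPM added). The protease, both of its inhibitors and its substrate gene Igfbp4 all had lower mean levels in KO cells, Igfbp4 without a main test. Adam12, a metalloprotease whose human form cleaves IGFBP3, had 93.9 ± 11 CPM in KO cells and 9.71 ± 1.0 CPM in WT cells (log2 fold change 3.27, SE 0.12, limma adjusted p = 1.0e-07). The procollagen protease gene Bmp1 rose too (log2 fold change 0.80). The cathepsin gene Ctsd had 1323 ± 114 CPM in KO cells and 1013 ± 108 CPM in WT cells (limma adjusted p = 0.021). Ctsd did not pass without KO replicate 1, KO replicate 3, WT replicate 2 or WT replicate 3 (limma adjusted p = 0.0522 to 0.091).

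Of 11 tested receptor substrates and adaptors 1 rose and 5 fell (54.5%, against 68.1% of all genes tested). The number that rose was 3 without KO replicate 3 and 2 without WT replicate 3. Grb10, an adaptor that restrains the IGF1 and insulin receptors, had 3.45, 3.80 and 2.95 CPM in KO libraries, against 155, 139 and 141 CPM in WT libraries. Its log2 fold change was -5.41 (SE 0.12, limma adjusted p = 8.4e-09). Irs2, a docking protein of both receptors, fell to 19 ± 5.2 CPM in KO cells, against 139 ± 31 CPM in WT cells (limma adjusted p = 7.5e-06). Its relative Irs1 had 92.8 ± 24 CPM in KO cells and 68.4 ± 17 CPM in WT cells and did not pass (limma adjusted p = 0.10). Irs1 passed without KO replicate 3 (limma adjusted p = 0.046) and without WT replicate 3 (limma adjusted p = 0.0323, with 0.0323 to 0.317 over the alternatives). The adaptor gene Sh2b2 fell (log2 fold change -2.05), and Grb2, which links receptors to Ras, rose by 0.45 on the log2 scale (limma adjusted p = 0.00044).

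Of 22 PI3K, AKT and mTOR genes 7 rose and 6 fell (59.1%, against 68.1% of all genes tested), and 9 did not pass. The number that rose was 3 without WT replicate 1 and 4 without KO replicate 1 or KO replicate 2. The PI3K regulatory subunit gene Pik3r1 fell to 42.5 ± 9.7 CPM in KO cells, against 133 ± 17 CPM in WT cells (log2 fold change -1.67). Of the catalytic subunits, Pik3ca fell by 0.62 and Pik3cb rose by 0.65 on the log2 scale. Pik3r3 and the mTOR partner gene Rptor rose by 0.78 and 0.62 on the log2 scale.

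Of 14 genes for mannose 6-phosphate tagging and sorting, the route that Igf2r serves, 4 rose and 4 fell (57.1%, against 68.1% of all genes). The number that fell was 2 without KO replicate 1 and also without an intensity trend in the test. M6pr, the other mannose 6-phosphate receptor gene, had 201 ± 16 CPM in KO cells and 156 ± 3.0 CPM in WT cells (log2 fold change 0.36, limma adjusted p = 0.0035). Gnptab, which encodes the enzyme that starts the tag, and the sorting adaptor gene Gga3 rose by 0.44 and 0.57 on the log2 scale. Nagpa, whose enzyme uncovers the tag, and Gga2 had log2 fold changes of -0.54 and -0.75. The retromer gene Vps26a had a log2 fold change of -0.32 (limma adjusted p = 0.028) and did not pass without KO replicate 1, KO replicate 3 or WT replicate 3, or without an intensity trend (limma adjusted p = 0.0547 to 0.0977).

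Of 7 tested binding partners of IGFBPs outside the IGF axis, 1 rose and 4 fell (71.4%, against 68.1% of all genes tested). The endocytic receptor gene Lrp1 and the integrin gene Itga5 had log2 fold changes of -1.11 and -1.03, and the integrin gene Itgb1 rose to 4337 ± 685 CPM in KO cells, against 2216 ± 105 CPM in WT cells. Itgb3 had a log2 fold change of -1.03 (limma adjusted p = 0.014) and did not pass without KO replicate 3 (limma adjusted p = 0.0555, with 0.00111 to 0.0555 over the alternatives). The 3 IGF2 mRNA-binding protein genes, which encode RNA-binding proteins rather than binders of the peptide, all passed, against 68.1% of all genes. Igf2bp1 had 15.1 ± 3.6 CPM in KO cells and 55.1 ± 4.3 CPM in WT cells, and Igf2bp3 had 1.67 ± 0.76 CPM in KO cells and 8.14 ± 1.7 CPM in WT cells. Igf2bp2 was slightly higher in KO cells at 90.3 ± 2.0 CPM, against 73.4 ± 2.7 CPM in WT cells. H19, the imprinted RNA beside Igf2, fell, with 0.761 ± 0.31 CPM in KO cells and 3.75 ± 1.9 CPM in WT cells (log2 fold change -2.18, limma adjusted p = 0.0034, and -1.35 with 1 CPM added before the log).

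Several marker groups differed between the lines, where 68.1% of all genes tested passed. The read totals of the libraries overlapped. The listed genes held 35447096 to 41360689 reads in KO libraries, against 35763961 to 42106461 in WT libraries, and 3 reads equal at most 0.0856 CPM. Of 12 podocyte markers 8 were listed and summed to 759 to 1013 CPM in KO cells and 1742 to 2021 CPM in WT cells. Of these 8, 2 rose and 5 fell (87.5%, against 68.1% of all genes tested). Wt1, a defining transcription factor of podocytes, had 0.125 ± 0.10 CPM in KO cells and 4.40 ± 2.0 CPM in WT cells, whereas Podxl and Cd2ap rose by 1.08 and 0.51 on the log2 scale. Wt1 entered the test through its WT level alone. Of 15 tubular and general epithelial markers 9 were listed, at 5112 to 5571 CPM in KO cells and 1565 to 2446 CPM in WT cells. Of these 9, 5 rose and 3 fell (88.9%). Those that rose were Cdh1, Epcam and the keratin genes Krt8, Krt18 and Krt19, of which Krt19 had 805 ± 75 CPM in KO cells and 0.0180 ± 0.016 CPM in WT cells. All 5 of these entered the test through their KO level alone, so a fall could not have been called. The tubule genes Aqp1, Lrp2 and Cdh16 fell, with log2 fold changes of -7.86, -4.56 and -3.42, and Cubn did not pass (log2 fold change -0.03). Of 12 fibroblast and mesangial markers 6 were listed, at 329 to 654 CPM in KO cells and 3467 to 3870 CPM in WT cells. Of these 6, 5 fell (83.3%), and Dcn did not pass (log2 fold change 0.55). Pdgfrb, among those that fell, entered the test through its WT level alone. Vim and Acta2 together gave most of these sums. Vim had 3.44 ± 1.6 CPM in KO cells and 2168 ± 257 CPM in WT cells, and Acta2 had 500 ± 164 and 1298 ± 43 CPM. Endothelial markers had 1 of 8 listed, at 1.75 to 2.29 CPM in KO cells and 4.52 to 14.7 CPM in WT cells. Leukocyte markers had 2 of 8 listed, at 56.2 to 75.5 CPM in KO cells and 37.1 to 56.9 CPM in WT cells. These ranges overlapped, and neither gene passed. The part of these marker differences in the levels of the IGF genes was not tested.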

How the data were processed

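The authors deposited 1 table of log2 CPM with a column for each of 6 libraries. Per the submitters' processing notes, the build was GRCm38 and the tools were STAR 2.7.3a, Trimmomatic 0.39, edgeR and featureCounts of Subread 1.6.4. The annotation, strand setting, filter and prior are not given in these sources. After the shared lowest value of -5.26 log2 CPM was subtracted on the linear scale, 100% of values up to 200 reads were whole multiples of a step in each column (tolerance 0.001). Reads, and CPM without the prior, follow from these steps. Libraries within a group differed by more than sampling noise.

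Genes above 0 log2 CPM in at least 3 libraries were tested with limma 3.58.1 (R 4.3.3, lmFit, eBayes with an intensity trend, KO minus WT, no covariates), and 187 were not. The procedure was also run on simulated data with far fewer changed genes than here. That run cannot show how it performs on lines this different. Exon lengths, positions and overlaps come from GENCODE M21 (GRCm38), and promoters from RefSeq (GRCm38.p6), where 6 of 6 members matched. The members and lists were chosen with earlier results of these data known, and the lists come from textbook knowledge. The text names all members, up to 3 risen and 3 fallen genes of each list and the 3 genes closest to the most risen and the most fallen member. Alternatives left out each library or changed the model, pseudocount, filter, scaling or test.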

Additional observations from a re-analysis of the deposited data

How the results depend on the processing

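The directions and calls of Igfbp2, Igfbp3, Igf1r, Igf2r and Myo1e held under all 14 alternatives. Across the alternatives the log2 fold change ran from -6.85 to -6.39 for Igfbp2, 3.42 to 4.78 for Igfbp3, -0.32 to -0.10 for Igf1r, 0.12 to 0.47 for Igf2r and -3.42 to -3.28 for Myo1e. Igfbp7, which did not pass in any fit, was at -0.10 with all libraries and between -0.18 and 0.03 when 1 library was left out. It turned to 0.02 without KO replicate 2 and to 0.03 without WT replicate 3. Airn, which passed nowhere, was at -0.04, at 0.22 after quantile normalization and between -0.33 and 0.20 with 1 library left out. For Igfbp4 the difference was -3.26, ran from -3.79 to -2.94 with 1 library left out, and was -1.16 with 1 CPM added before the log, which by construction pulls low genes together. The number of genes past the threshold was 8590 and ran from 7573 to 8323 with 1 library left out. Replicate numbers did not pair the libraries: the deviations of equal numbers correlated at -0.0951 to 0.101. With the replicate number as a block 8395 genes passed, with Igfbp2 at -6.61 and Igfbp3 at 4.59, and no call of a member changed. Genes of few reads, such as Igfbp4 and Pappa in the KO line, are limited by depth.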
